A study of Homo sapiens with 4 samples.

Results

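Sprouty, SPRED and RGS proteins are brakes on receptor signalling, and their messenger RNAs were followed here in Jurkat cells, a human line established from a T cell leukaemia. The members were 10 genes: the Sprouty genes SPRY1, SPRY2 and SPRY4, the SPRED genes SPRED1 and SPRED2, and the RGS genes RGS1, RGS2, RGS10, RGS14 and RGS16. They were taken as all probe sets whose single gene symbol in the platform annotation was one of these names, which gave 23 of 54675 probe sets and 10 of 19775 named genes. Of the members, 9 had at least 1 probe set whose highest signal reached the limit used for low values, a MAS5 signal of 56.4, the median of all signals. These 9 had 15 such probe sets, and RGS1 had none.

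Messenger RNA was measured on 4 single-colour oligonucleotide arrays, 1 for each group. Cells with a hairpin RNA that targets IKKε (the shIKKE line) were compared with cells carrying a control construct (the control line), which the titles call a vector and the design text calls a control hairpin. Each line received either 10 ng/ml PMA with 0.5 uM ionomycin or solvent, for 3 h. The groups were thus the shIKKE line stimulated, the shIKKE line with solvent, the control line stimulated and the control line with solvent. IKKε is the product of IKBKE and a close relative of the kinase TBK1. PMA activates protein kinase C and, through RASGRP exchange factors, RAS, and ionomycin lets calcium into the cell. The labels do not say whether a line was 1 clone or a pool, nor how the hairpin was delivered or expressed. With 1 array per group no difference between arrays has a replicate check, so such differences carry no p-value.

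Sprouty proteins are made after growth factor or antigen receptor signals and then hold back the RAS, RAF, MEK and ERK cascade. SPRED proteins share the cysteine-rich Sprouty domain and act on RAS with neurofibromin, a GTPase-activating protein that switches RAS off. RGS proteins speed GTP hydrolysis by G protein alpha subunits and so shorten signals from receptors such as those for chemokines. In lymphocytes several of these genes are themselves switched on by activation, which makes them feedback inhibitors.

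All 12 listed T cell markers, CD3E and LCK among them, had signals above 56.4 on every array. The brightest genes of other cell types were CD79A (408 at most) and KRT8 (220.1 at most). Of the myeloid markers, CD14 read 8.10 at most, but CSF1R (107) and ITGAM (103) were above 56.4 on the stimulated array of the shIKKE line. The summed signal of the T cell markers lay between 67097 and 75651, against 376 to 604 for 5 B cell markers, 88.4 to 224 for 4 myeloid markers and 212 to 424 for 5 erythroid and epithelial markers. The summed signals of the last 3 lists were highest on the stimulated array of the shIKKE line, and their part in the results was not tested. The median signal of an array was 69.1 and 49.7 in the shIKKE line with stimulation and with solvent, and 59.8 and 48.8 in the control line in the same order. RNA integrity was read as the ratio of 5′ to 3′ ACTB control signals. It was 0.266 and 0.339 in the shIKKE line with stimulation and with solvent, and 0.401 and 0.244 in the control line in the same order. The lowest value was thus on the solvent array of the control line, and its part in the results was not tested. The same ratio for GAPDH lay between 1.04 and 1.17. The brighter IKBKE probe set read 248 in the stimulated shIKKE line against 520.2 in the stimulated control line, and 180.2 against 339.9 with solvent. The dimmer one read 279.8 against 311 and 287 against 218, so the lower signal of the targeted gene in the shIKKE line rests on 1 of its 2 probe sets with solvent.

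Differences below are of log2(signal + 14.1), a scale that shrinks the changes of dim genes, and a gene counts as higher or lower at 2-fold (a difference of 1). A gene stands at its probe set with the highest mean level, and signals of different probe sets are not compared as levels. With stimulation, SPRY1, SPRY2, SPRY4, SPRED1 and RGS16 passed 2-fold upwards in the shIKKE line, which made 5 of the 9 members above the limit, and no member was 2-fold lower. In the control line SPRY4, SPRED1 and RGS16 were at least 2-fold higher and RGS2 was at least 2-fold lower. Over all 13717 genes above the limit, 10.3% were higher and 2.68% lower in the shIKKE line, and 7.57% were higher and 6.44% lower in the control line. The median difference of the 9 members was 1.26 in the shIKKE line and 0.66 in the control line, where the medians of all genes were -0.01 and -0.07. A member kept only because it was bright with stimulation, such as RGS16, had to differ, so these counts are descriptions.

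**Figure D1:**
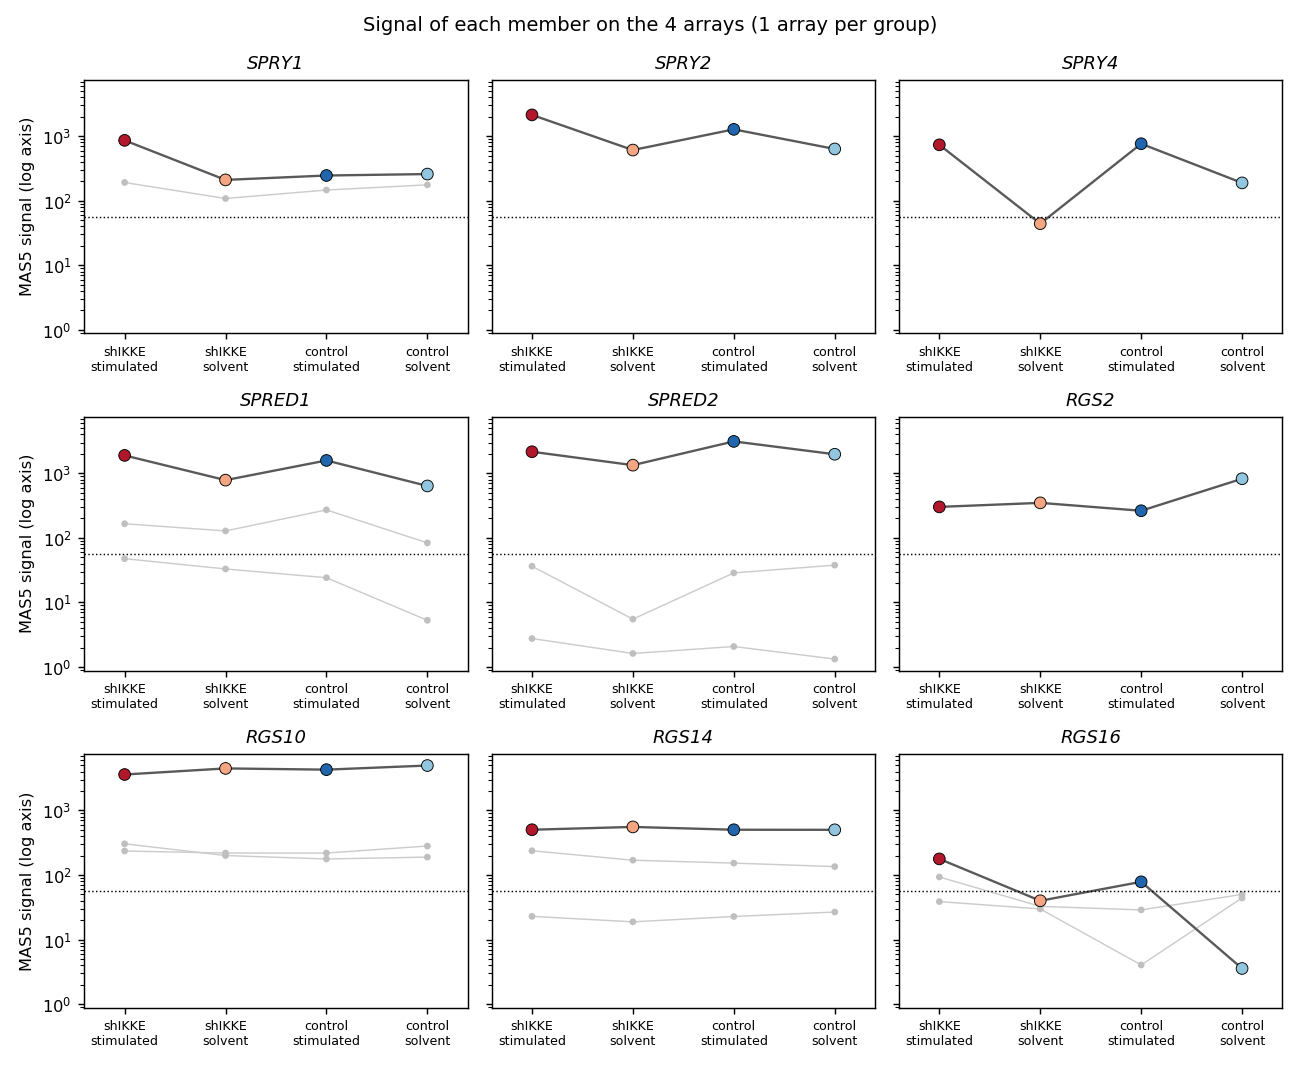
MAS5 signal (log axis) of the 9 members above the limit on the 4 arrays, 1 point per array. Coloured points joined by a dark line are the probe set that stands for the gene, grey points are its other probe sets, and the dotted line is the limit of 56.4. SPRY4 dips to 44.1 in the shIKKE line with solvent, RGS2 is highest at 824 in the control line with solvent, and RGS14 stays between 501 and 555.

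In the shIKKE line each of the 3 Sprouty genes had a larger difference with stimulation than either SPRED gene, by the probe sets that stand for them. The dimmer SPRY1 probe set, at 0.75, lay below SPRED1 at 1.26. SPRY4, which encodes an inhibitor of the RAS and ERK cascade, read 735 stimulated and 44.1 with solvent in the shIKKE line. In the control line it read 764 stimulated and 189 with solvent. The signals of both stimulated arrays thus lay close together, while those of the solvent arrays differed. The log2 difference with stimulation was 3.69 in the shIKKE line and 1.94 in the control line, the largest of the 9 members in the shIKKE line. With the solvent arrays exchanged between the lines these differences became 1.88 and 3.74, so their order rests on the solvent arrays. Only 1 probe set on the array has SPRY4 as its single symbol.

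SPRY2, encoding an inhibitor that is itself regulated by the ubiquitin ligase CBL, read 2136 stimulated and 609.6 with solvent in the shIKKE line. It read 1275 stimulated and 634 with solvent in the control line. Here the solvent arrays were alike and the stimulated array of the shIKKE line was the highest. The log2 differences were 1.79 in the shIKKE line and 0.99 in the control line, the second just short of 2-fold, and it came to 1.01 after quantile normalization or with no pseudocount.

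SPRY1, which in T cells binds the adaptor LAT and phospholipase C gamma, read 861 stimulated and 210.2 with solvent in the shIKKE line. The control line gave 246 stimulated and 259 with solvent, so the stimulated array of the shIKKE line stood apart from the other three. The log2 differences were 1.96 in the shIKKE line and -0.07 in the control line. Its dimmer probe set gave 192 and 108 in the shIKKE line (log2 0.75) and 147 and 176 in the control line (log2 -0.24), in the same directions but short of 2-fold.

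The sequence before the start of the Sprouty genes is shown because all 3 hold the letters of one motif fixed for the search, the EGR site GCGNGGGCG. EGR factors are zinc finger proteins made soon after ERK signalling begins. The windows are RefSeq's on GRCh38.p14, matched by symbol for all 10 members (15 windows, since some genes have several starts), and each line gives the 250 bases before the start, with the EGR letters on either strand in capitals. That of SPRY1 is the second of its 2 starts (chr4:123398136-123398385, plus strand), that of SPRY2 the first of 3 (chr13:80341127-80341376, minus strand), that of SPRY4 its only one (chr5:142324248-142324497, minus strand), and that of RGS10 the first of 2 (chr10:119542720-119542969, minus strand).
SPRY1: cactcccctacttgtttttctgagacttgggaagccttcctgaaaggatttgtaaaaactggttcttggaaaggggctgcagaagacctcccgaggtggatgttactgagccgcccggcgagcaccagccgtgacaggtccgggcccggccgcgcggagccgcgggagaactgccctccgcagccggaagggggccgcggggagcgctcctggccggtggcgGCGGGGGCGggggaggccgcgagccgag
SPRY2: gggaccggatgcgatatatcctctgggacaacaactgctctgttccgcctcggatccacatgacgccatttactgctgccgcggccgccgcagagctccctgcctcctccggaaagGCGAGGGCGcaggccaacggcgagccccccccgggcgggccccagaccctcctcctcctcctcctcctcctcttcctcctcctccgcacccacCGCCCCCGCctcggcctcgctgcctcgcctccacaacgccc
SPRY4: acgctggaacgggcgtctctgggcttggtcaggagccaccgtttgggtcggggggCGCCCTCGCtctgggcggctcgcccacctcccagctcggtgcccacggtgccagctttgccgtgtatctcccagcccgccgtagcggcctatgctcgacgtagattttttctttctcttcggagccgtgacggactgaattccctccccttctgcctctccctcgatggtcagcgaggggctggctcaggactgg
RGS10: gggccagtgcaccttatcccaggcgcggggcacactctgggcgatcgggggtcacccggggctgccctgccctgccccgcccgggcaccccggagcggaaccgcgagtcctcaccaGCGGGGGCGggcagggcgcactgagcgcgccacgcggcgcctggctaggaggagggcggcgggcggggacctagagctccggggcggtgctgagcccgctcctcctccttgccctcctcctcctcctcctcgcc
The EGR letters begin 28 bases before the start in SPRY1, 134 and 41 in SPRY2, 195 in SPRY4 and 134 in RGS10. They occurred in 4 of the 15 member windows, read over 250 bases before to 50 after the start, and in 9.43% of all 35116 windows. The window of RGS10 is printed beside them because that gene holds the same letters and, as given below, stayed within 2-fold in each of the 5 comparisons. The member windows had a median GC content of 62.4%, against 58.0% for all windows, over the 250 bases before the start.

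Of the other motifs searched on both strands, the ETS site CCGGAAG was in 1 member window, that of SPRY1 shown above, at 67 bases before the start, and in 10.3% of all windows. The AP-1 site TGANTCA was in 1, the second start of SPRED2, and in 7.71% of all windows. The NFAT core GGAAAA was in 4 windows of RGS16, SPRED2 and SPRY2, and in 24.0% of all windows. The CRE TGACGTCA, the CArG box and the NF-κB site were in 0 of the 15, against 1.85%, 1.29% and 5.91% of all windows. No match to one motif shared letters with a match to another in the member windows. These matches describe letters in the windows and are not binding data.

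SPRED1, the member mutated in Legius syndrome, brings neurofibromin to the membrane. It read 1894 stimulated and 784 with solvent in the shIKKE line, and 1582 stimulated and 637 with solvent in the control line. Both stimulated arrays lay above both solvent arrays, with log2 differences of 1.26 in the shIKKE line and 1.29 in the control line. A dimmer probe set gave 165 and 128 in the shIKKE line (log2 0.34) and 271 and 83.6 in the control line (log2 1.55), so 2-fold was reached by both probe sets in the control line only. The third probe set of SPRED1 reached 47.6 at most, under the limit.

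SPRED2, a close relative with the same domains, read 2158 stimulated and 1337 with solvent in the shIKKE line, and 3120.0 stimulated and 1973 with solvent in the control line. The log2 differences of 0.68 in the shIKKE line and 0.66 in the control line were nearly equal and under 2-fold, and became 0.13 and 1.21 with the solvent arrays exchanged. Both arrays of the shIKKE line lay below their control line partners, by log2 differences of -0.53 when stimulated and -0.56 with solvent, under 2-fold as well. The other 2 probe sets of SPRED2 were under the limit on every array.

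**Figure D2:**
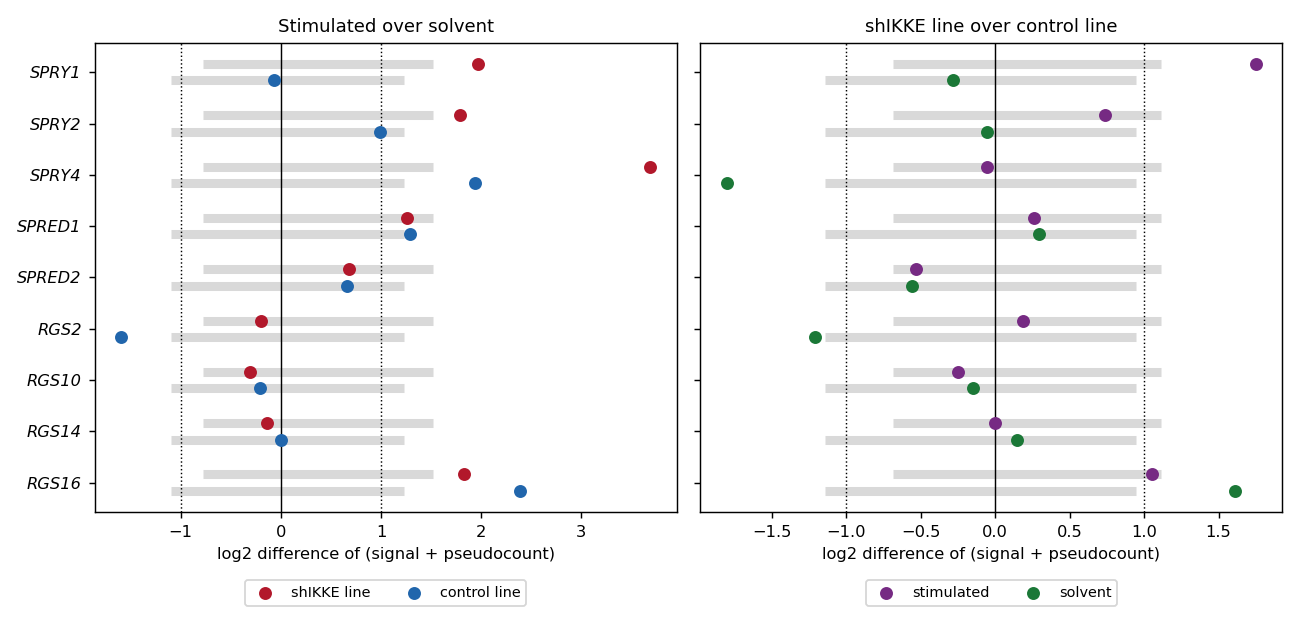
Log2 differences of single arrays for the 9 members: stimulated over solvent in each line (left) and shIKKE over control for each treatment (right). Grey bars span the central 90% of 13717 genes in the same comparison, and dotted lines mark 2-fold. SPRY4 lies at 3.69 and 1.94 on the left and at -1.80 with solvent on the right, and SPRY1 lies at 1.75 when stimulated.

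RGS2 was the 1 member at least 2-fold lower with stimulation, in the control line. RGS2, an inhibitor of Gq signalling, read 302 stimulated and 349 with solvent in the shIKKE line, and 263 stimulated and 824 with solvent in the control line. The first 3 of these values lay near each other and the solvent array of the control line was higher. The log2 difference with stimulation was -0.20 in the shIKKE line and -1.60 in the control line. Set against solvent-treated shIKKE cells instead, the stimulated control line gave -0.39, so its 2-fold lower signal rests on the one solvent array. Only 1 probe set names RGS2.

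RGS16, an activation-induced inhibitor of Gi and Gq signalling that limits chemokine responses, had dim and discordant probe sets. The probe set that stands for it read 178 stimulated and 39.9 with solvent in the shIKKE line, and 78.4 stimulated and 3.56 with solvent in the control line (log2 1.83 and 2.39). The second read 93.1 and 32.7 in the shIKKE line (log2 1.20), and 28.8 and 50.1 in the control line (log2 -0.58). The third, under the limit, read 38.7 and 29.8 in the shIKKE line (log2 0.27), and 4.04 and 44.1 in the control line (log2 -1.68). All 3 were thus higher with stimulation in the shIKKE line, while in the control line 1 was higher and 2 were lower, and its response there is not settled. By the first probe set, the solvent arrays exchanged between the lines gave 3.44 in the shIKKE line and 0.78 in the control line. Among the 1000 genes nearest to RGS16 in mean level, 21.7% passed 2-fold upwards with stimulation in the shIKKE line and 12.2% in the control line, above the shares over all genes.

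RGS10 and RGS14 varied little. RGS10, a small RGS protein of lymphoid and microglial cells, read 3602 stimulated and 4477 with solvent in the shIKKE line, and 4285 stimulated and 4962 with solvent in the control line (log2 -0.31 and -0.21). RGS14, which also binds RAS and RAF, read 503 stimulated and 555 with solvent in the shIKKE line, and 502 stimulated and 501 with solvent in the control line (log2 -0.14 and 0.00). The spread over the 4 arrays was 0.46 for RGS10 and 0.14 for RGS14 on the log2 scale, against 3.74 for SPRY4. The dimmer probe sets above the limit moved by less than 2-fold in both lines too, up to 0.57 for RGS10 and 0.46 for RGS14 in the shIKKE line. RGS1, a Gi inhibitor of activated B and T cells, read at most 18.9 over its 3 probe sets and 4 arrays, which is close to the pseudocount, and no direction is given for it.

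**Figure D3:**
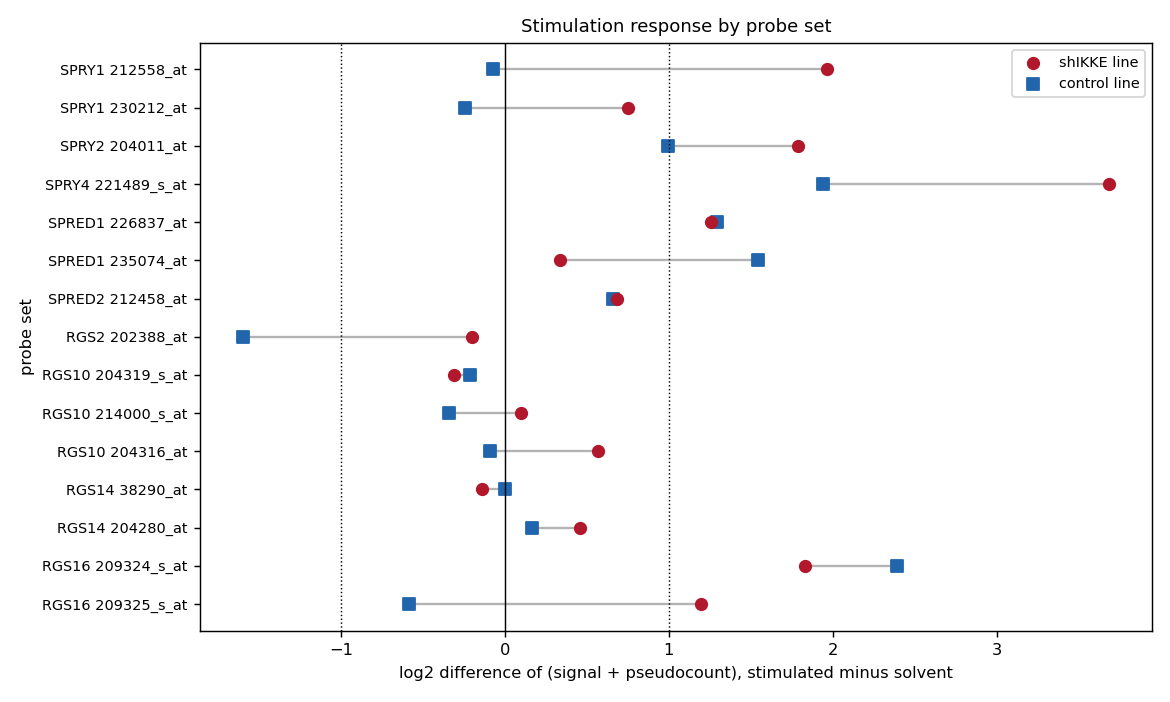
Log2 difference with stimulation for each of the 15 member probe sets above the limit, in the shIKKE line (circles) and the control line (squares), with lines joining the pair. Probe sets of SPRED1 and of RGS16 differ from each other, with the second RGS16 probe set at 1.20 in the shIKKE line and -0.58 in the control line.

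A single model over all 4 arrays, limma with additive effects of stimulation and of line, gave the average effects with an error. Averaged over both lines, SPRY4 had a difference of 2.81 ± 0.47 (SE; limma adjusted p = 0.145), SPRY2 1.39 ± 0.31 (0.192) and SPRED1 1.28 ± 0.25 (0.171). No member passed an adjusted p of 0.05 for stimulation in limma, and 1 of 13717 genes did (0.00729%). At an unadjusted limma p under 0.05 there were 5 of the 9 members, against 1887 of all 13717 genes. The 5 were SPRY4, SPRY2, SPRED1, SPRED2 (0.67 ± 0.25, SE) and RGS16. RGS16 had passed the limit through its stimulated arrays only and its probe sets disagree, so its fit is not used as a test. For the line no member and 0 of 13717 genes (0%) passed in limma, with 1 member, RGS16, and 1000 genes at an unadjusted p under 0.05. Its 1 residual degree of freedom comes from the gap between the responses of the lines, so genes such as SPRY1 and SPRY4 whose responses differed carry a large error.

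Between the lines with solvent, the shIKKE line had at least 2-fold lower SPRY4 and RGS2, and RGS16 was higher by the probe set that stands for it. Over all genes 6.68% were lower and 4.34% higher. SPRY4 read 44.1 in the shIKKE line against 189 in the control line (log2 -1.80), and RGS2 349 against 824 (log2 -1.21). RGS16 read 39.9 against 3.56 (log2 1.61), but 32.7 against 50.1 by its second probe set (log2 -0.46). The other 6 members lay within 2-fold, SPRY2 at -0.05 and SPRY1 at -0.28 among them. The control solvent array is subtracted both here and in the response of the control line, so a high or low value on it moves both the same way.

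Between the stimulated lines, SPRY1 and RGS16 passed 2-fold upwards in the shIKKE line and none of the 9 was 2-fold lower, where 5.99% of all genes were higher and 2.37% lower. SPRY1 read 861 in the shIKKE line against 246 in the control line (log2 1.75), and 192 against 147 by its dimmer probe set (log2 0.36). RGS16 read 178 against 78.4 (log2 1.05) and 93.1 against 28.8 by its second probe set (log2 1.32). SPRY2 read 2136 against 1275 (log2 0.74), and SPRY4 read 735 against 764 (log2 -0.05). Of the members that differed 2-fold with solvent, SPRY4 and RGS2 (log2 0.19) were within 2-fold here.

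The response of the shIKKE line minus that of the control line was at least 2-fold for SPRY1 (2.03), SPRY4 (1.75) and RGS2 (1.40), against 11.4% of all genes higher and 4.67% lower. The arrays behind these values differed. For SPRY1, by the probe set that stands for it, the stimulated array of the shIKKE line was high. For SPRY4 the solvent arrays differed, and for RGS2 the solvent array of the control line was high. The dimmer SPRY1 probe set gave 0.99. There the shIKKE line differed from the control line more with solvent (log2 -0.64) than when stimulated (log2 0.36), so the array behind the SPRY1 value depends on the probe set. SPRED1 (-0.04), SPRED2 (0.03), RGS10 (-0.10) and RGS14 (-0.14) had nearly the same response in both lines by the probe set that stands for each. Dimmer probe sets above the limit differed more between the lines, with -1.21 for SPRED1 and 0.44 and 0.66 for RGS10. RGS16 gave -0.56 by its first probe set and 1.78 and 1.95 by the other two, of which the second is under the limit, so no direction is given for it.

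Transcripts known to follow ERK signalling, a list of 17 genes of which 14 were above the limit, separated the solvent arrays as SPRY4 did. With solvent, 9 of the 14 were lower by 2-fold or more in the shIKKE line and none was higher, with a median difference of -1.56, where 6.68% of all genes were lower and the median of all genes was -0.05. The early growth response gene EGR1 read 1035 in the shIKKE line against 9953 in the control line (log2 -3.25) and EGR3 104 against 4526 (log2 -5.26). With stimulation, 12 were higher and 2 lower in the shIKKE line (median 2.31), and 7 were higher and 1 lower in the control line (median 1.04), with 85.7% higher and 14.3% lower in the shIKKE line and 7.14% lower in the control line as shares of the 14. Over all genes the shares were 10.3% and 2.68% in the shIKKE line and 7.57% and 6.44% in the control line. LIF, counted as higher in both lines, was above the limit on its stimulated arrays only (174.6 and 71.5), so it had to differ. ETV4, counted as lower in the shIKKE line, fell there from 68.1 to 19.0, a value under the limit. These counts are therefore descriptions. The stress response gene IER3 read 22167 stimulated and 459.6 with solvent in the shIKKE line (log2 5.55), and the MAP kinase phosphatase gene DUSP5 read 14032 and 1187 in the control line (log2 3.55). Between the stimulated lines the median was -0.07, with 2 higher (14.3%) and 1 lower (7.14%), against 5.99% and 2.37% of all genes. The higher ones were EGR3 (log2 1.21) and LIF (log2 1.14), and the lower one was ETV4 (19.0 against 75.6, log2 -1.44). The other ETV4 probe set, under the limit, went the other way (log2 0.98). The level of the transcripts of this list on the solvent array of the control line moved with SPRY4, and its part in the result was not tested.

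Sprouty and SPRED proteins restrain the cascade from RAS to ERK. Of 18 RAS activators, RAS, RAF, MEK and ERK genes above the limit (25 listed), none reached 2-fold with stimulation in the shIKKE line, and in the control line the adaptor gene LAT was higher (10071 stimulated and 3713 with solvent, log2 1.44) and RRAS lower (117 and 279, log2 -1.16). With solvent, RASGRP2, an exchange factor gene, read 1625 in the shIKKE line against 577 in the control line (log2 1.47), and HRAS 3037 against 1302 (log2 1.21), while none of the 18 was lower. The 2 higher genes were 11.1% of the list, against 4.34% of all genes, and with stimulation the list had 0% higher in the shIKKE line, against 10.3%, and 5.56% higher in the control line, against 7.57%. Between the stimulated lines 1 gene, MRAS, was lower in the shIKKE line (13.6 against 59.9, log2 -1.42). This is 5.56% of the list, against 2.37% of all genes. The signal of 59.9 was the only one of this probe set above the limit. The other MRAS probe set, under the limit, went the other way (36.3 against 20.9, log2 0.53).

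Among 11 RAS GTPase-activating proteins and docking brakes above the limit (16 listed), the docking protein gene DOK3 was higher with stimulation in both lines (209 and 83.7 in the shIKKE line, log2 1.19, and 245 and 55.0 in the control line, log2 1.91). NF1, encoding the neurofibromin that SPRED proteins recruit, read 49.7 stimulated and 17.3 with solvent in the shIKKE line, and 34.4 and 208 in the control line, by 1 probe set. Its log2 differences were thus 1.02 in the shIKKE line and -2.20 in the control line, with a high solvent array of the control line as for RGS2. Only that array was above the limit, so NF1 had to differ in the control line. Its higher signal with stimulation in the shIKKE line compares values under the limit. The counts of this list given below include NF1 in both lines. RASA3 was the other gene of the list that was 2-fold lower in the control line (316 and 677, log2 -1.07), but a dimmer probe set above the limit went the other way there (log2 1.98). Of the 11 genes, 2 were higher and none lower with stimulation in the shIKKE line, and 1 was higher and 2 were lower in the control line, where the shares over all genes were 10.3% and 2.68%, and 7.57% and 6.44%.

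Of 14 Sprouty and SPRED partners above the limit (17 listed), the kinase gene TESK1 was the 1 that reached 2-fold with stimulation, in the shIKKE line (1096 and 453, log2 1.25). This is 7.14% of the list, near the 10.3% of all genes that were higher, and 0 of the 14 differed 2-fold between the lines, where 2.37% to 6.68% of all genes did in a given direction and treatment. SPRY3, the remaining Sprouty gene, was dim and read 65.6 stimulated and 5.92 with solvent in the shIKKE line, and 25 and 6.24 in the control line (log2 1.99 and 0.94). SPRED3 stayed within 2-fold in each comparison.

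Of 16 other RGS genes listed, 6 were above the limit, and RGS3 stood out. RGS3, an inhibitor of Gi and Gq signalling, read 996 stimulated and 161 with solvent in the shIKKE line, and 1084 stimulated and 141 with solvent in the control line. Its log2 differences were 2.53 in the shIKKE line and 2.83 in the control line. Both other probe sets of RGS3 were at least 2-fold higher in both lines, the brighter of them by 2.56 and 1.80. The dimmest was above the limit only on the stimulated array of the control line (56.6), so its higher signal there was fixed by the limit. Its difference in the shIKKE line compares values under the limit. RGS5 reached 2-fold in the control line (222 and 101, log2 1.03), where its other 2 probe sets above the limit gave -0.30 and -0.32. In the shIKKE line RGS5 gave 0.06, but those 2 probe sets gave 1.98 and 1.44. The last of them was above the limit on the stimulated array of the shIKKE line only (67.7). Its probe sets thus disagree in both lines, and the shares given next count RGS5 by the probe set that stands for it. With stimulation 16.7% of the 6 were higher in the shIKKE line, against 10.3% of all genes, and 33.3% in the control line, against 7.57%. By the probe sets that stand for them, 0 of the 6 differed 2-fold between the lines, where 2.37% to 6.68% of all genes did in a given direction and treatment. A dimmer probe set above the limit did so for RGS5 with solvent (12.3 against 78.3, log2 -1.81) and for RGS12 when stimulated (3.55 against 70.3, log2 -2.26). The signal of 70.3 was the only one of that RGS12 probe set above the limit, so a high value there was fixed by the limit. No other RGS12 probe set above the limit reached 2-fold between the stimulated lines.

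RGS proteins act on heterotrimeric G proteins. Of 22 subunit genes above the limit (26 listed), 2 were higher and none lower with stimulation in the shIKKE line, and 1 was higher and 2 were lower in the control line. As shares these were 9.09% higher in the shIKKE line, against 10.3% of all genes, and 4.55% higher and 9.09% lower in the control line, against 7.57% and 6.44%, so they lay near those of all genes. GNG7, a gamma subunit gene, read 97.7 stimulated and 20.9 with solvent in the shIKKE line (log2 1.67), and 66.9 and 149 in the control line (log2 -1.01). Its second probe set above the limit gave -0.26 in the shIKKE line and -1.02 in the control line, so the higher signal in the shIKKE line rests on 1 probe set. GNB5, encoding the beta subunit that pairs with some RGS proteins, read 541 in the shIKKE line against 1621 in the control line with solvent (log2 -1.56), and 412 against 949 when stimulated (log2 -1.18). Of its 4 dimmer probe sets 1 reached 2-fold with solvent (log2 -1.36) and none when stimulated.

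For the members with the widest range over the 4 arrays, SPRY4, RGS16 and SPRY1, the genes with the nearest pattern were sought among 4401 genes with a range of at least 2-fold, by the Euclidean distance of log2 values centred on each gene's mean. Those of SPRY4 were the phosphatase gene DUSP2 (distance 0.29), the connexin gene GJB2 (0.36) and SERTAD1 (0.44). DUSP2 read 16419 stimulated and 1108 with solvent in the shIKKE line, and 19612 and 4147 in the control line. Those of RGS16 were EMP1 (0.28), MEDAG (0.30) and CFAP70 (0.55). Those of SPRY1 were SLC1A2 (0.07), CTRB2 (0.10) and RNASE11-AS1 (0.11), whose signals reached only 63.6 to 70.8 on the stimulated array of the shIKKE line and stayed at 15.1 or less elsewhere. A likeness over 4 arrays is a description of these arrays.

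**Figure D4:**
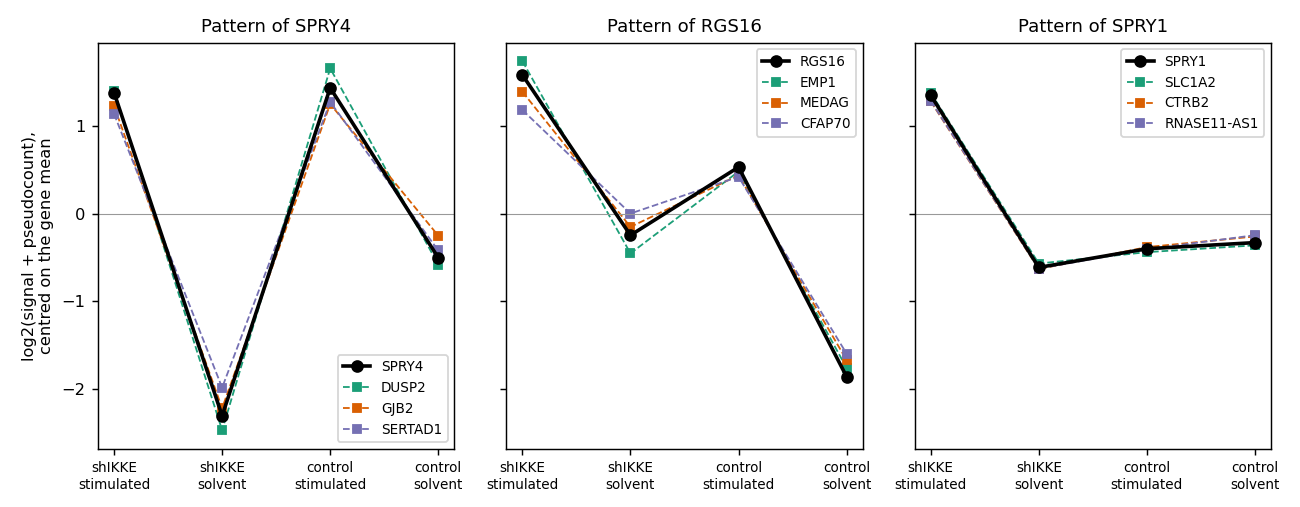
Log2(signal + pseudocount) centred on the gene mean over the 4 arrays for SPRY4, RGS16 and SPRY1 (black) and the 3 genes nearest to each (colours, dashed). The SPRY4 group is lowest in the shIKKE line with solvent, and the RGS16 group is lowest in the control line with solvent. The SPRY1 group is high only in the stimulated shIKKE line, the only array on which its 3 neighbours were above the limit.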

How the data were processed

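Biotin-labelled RNA of 4 Jurkat samples was measured on 4 arrays, 1 per group. The values are linear intensity values, 1 per probe set and array, made by the authors with MAS5, per the submitters' processing notes. Its version, target and filters are not given in the sources. With 2% trimmed from either end, array means all came to 500.07, so the arrays share one scaling target, and dim signals can still shift between them. Array precision is limited by the number of arrays.

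Groups came from the sample titles. Gene names came from the platform annotation, where 41091 probe sets had 1 symbol and 1801 several; probe sets with several or none were not named, and 41037 matched RefSeq by gene ID. Values were log2 of the signal plus 14.1, the 25th percentile of all signals. Average effects came from limma 3.58.1 (R 4.3.3, two-sided, Benjamini-Hochberg over all genes). The same fit was run on simulated data in which stimulation had the same effect in both lines. Such data cannot check the fit for genes whose responses differed between the lines. Other steps used Python 3.11.15, pandas 2.3.3, numpy 2.4.6 and matplotlib 3.10.9.

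The members and the 7 gene lists were chosen with earlier results of these data known. Named besides the members were IKBKE, up to 2 genes per list, comparison and direction with the largest difference past 2-fold, and the 3 nearest patterns of 3 members; other names are members of a list or were chosen after their values were seen.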

Additional observations from a re-analysis of the deposited data

How the results depend on the processing

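Results were recomputed with no pseudocount, with no filter, after quantile normalization, after cyclic loess, with each gene at its probe sets' median, and, for stimulation, with the solvent array of the other line as baseline. No replicate block could be fitted, since each group had 1 array and the labels give no replicate numbers, and the additive limma model already compares treatments within lines. RGS16 changed direction with no pseudocount, where its second probe set stood for it, to -0.80 for stimulation in the control line and -0.62 for the shIKKE line over the control line with solvent. The count of members at least 2-fold lower with stimulation in the control line was 2 with no filter, RGS1 having entered, and 0 with the other baseline. The count higher in the control line stayed at 3 with that baseline, but of SPRY2 (1.05), SPRY4 and SPRED2, with SPRED1 just under 2-fold. It was 4 after quantile normalization or cyclic loess, where SPRY2 passed, and 2 with the median of probe sets, where RGS16 fell to 0.90; the shIKKE line then had 4, as SPRED1 came to 0.80. With the other baseline 1 member, RGS2 (-1.41), was lower in the stimulated shIKKE line. Members higher in the shIKKE line with solvent numbered 0 with no pseudocount or with the median of probe sets, and those higher when stimulated numbered 1 after quantile normalization or cyclic loess, RGS16 having dropped to 0.98 and 0.85. Over all genes, 53.3% of 2-fold differences with stimulation were higher after quantile normalization against 79.4% as reported in the shIKKE line, and 40.6% against 54.0% in the control line. Between the stimulated lines these were 59.3% and 71.7%. The difference of the responses was -0.56 for RGS16 but 2.31 with no pseudocount, which made 4 members (4 with no filter too), and 0.61 with the median of probe sets, where RGS10 had 0.79 and SPRED1 -0.62. Leaving aside the setting with no filter, which cannot change these values, 168 of 198 single-member differences kept their direction and side of 2-fold. Signals below about the pseudocount carry little information on direction, which limits RGS1, RGS16 in the control line and SPRY3.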
